A study of Mus musculus with 18 samples.

Results

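Macrophages and monocytes are phagocytes of the innate immune system. Resident macrophages are abundant in adipose tissue, where they clear dying cells and debris and lie close to the regulatory T cells (Treg) of fat. They can be told from T cells by transcripts of complement C1q, scavenger receptors, Fc receptors with their signalling adaptors, the growth factor receptor Csf1r and lysosomal enzymes, although Lgals3, Ctss, Apoe, Fcgr2b and Cebpb are also known from other cells. The 35 transcripts described here were taken as a measure of myeloid RNA in sorted CD4 T cells. For each gene the probe set with that single annotated symbol and the highest mean over 18 arrays was used. All 35 were found among the 18193 genes measured. A filter on dim signal, which asked that at least 1 of 6 group means exceed the median of all values (an intensity of 65.5), passed 27 of the 35 and 12258 of all genes. The 8 members below it were C1qc, Marco, Cd68, Lyve1, Tlr2, Tlr4, Itgam and Aif1.

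CD4 T cells of 3 mouse tissues were sorted by CD25, the CD25+ fraction being called Treg and the CD25- fraction conventional T cells (Tconv), with 3 Affymetrix M430v2 arrays in each of 6 groups. Fat Treg and fat Tconv came from epididymal fat of male C57Bl/6 mice of 25 to 35 weeks, in pools of 8 to 10 mice per array. Thymus Treg and thymus Tconv were taken at an age of 4 to 6 weeks from BDC2.5/NOD mice, which carry a T cell receptor transgene on a diabetes-prone background, and lymph node Treg and lymph node Tconv from cervical, inguinal and mesenteric nodes of C57BL/6 mice of 32 to 36 weeks, both in pools of 3 to 6. All 6 groups were gated as CD4+ and as negative for B220, CD11b and CD8a. The fat gate added TCRb+, and CD8a cells were depleted before the thymus sort. Itgam encodes CD11b, which the gate used, so its level is given as a description; its 1 probe set was dim on all arrays. Strain, age and the depletion cannot be told apart from tissue in the thymus, and the TCRb gate, the pool size and the range of ages cannot be told apart from tissue in fat. Sex is given by the labels for the fat mice.

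Foxp3, the lineage factor of Treg, checked the labels, with a mean intensity of 1315 in fat Treg against 75.7 in fat Tconv. The median deposited intensity was 76.9 to 82.2 on the 6 fat arrays and 57.9 to 63.0 on the other 12, so all arrays were quantile normalised together before any level was compared. Intensities below are on that scale, fold changes are in log2 with their standard error (SE), and a gene passed the test at a limma adjusted p under 0.05 over the 12258 genes. The arrays are of pools, so every error rests on the spread between pools, and their number, 3 per group, limits the precision. For each gene that spread was averaged over all 6 groups in the fit. An SE is therefore not the spread of the compared groups alone. Members such as Cd163 varied more between fat arrays than between lymph node arrays. In RNA of a sorted population, fewer cells of a type and less RNA per cell cannot be told apart.

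The first comparison asks how much myeloid transcript the T cells of fat carried beside those of lymph node. Among Treg, 19 of the 27 members tested were higher in fat than in lymph node and 1, Ctss, was lower, where 35.3% of all genes tested passed in either direction, 16.1% higher and 19.3% lower. Over all 35 members the median log2 difference was 0.97, against 0.005 over all genes measured, and 30 of 35 were above 0. Among Tconv, 11 of 27 were higher in fat and 0 were lower, where 23.3% of all genes passed, 11.0% higher and 12.3% lower. The median over the 35 members was 0.58, against -0.034 over all genes, and 28 were above 0. At an unadjusted p under 0.05 in the same limma fit, 14 members were higher and 1, Ctss, was lower in fat Tconv. The dim filter took fat means too, and C1qa, C1qb, Cd163, Mrc1, Clec4n, Fcer1g, Tyrobp, Cd14, Pf4 and Apoe passed it through fat alone. Counts among tested members therefore favour genes that are bright in fat. With no filter, 21 of 35 members were higher and 2 lower in fat Treg, where 27.7% of all genes passed. In fat Tconv 10 were higher and 1 lower, where 18.1% passed. The same arrays were also split into 3 smaller comparisons, which are no independent support for the medians above. Within the 3 sets of arrays whose file numbers in the labels lie close together, each with 1 array of every fat and lymph node group, the member median in Treg was 1.04, 0.45 and 1.05, and in Tconv it was 0.73, 0.05 and 0.70. The medians over all genes were 0.01, 0.03 and -0.034 in Treg and -0.023, -0.048 and -0.025 in Tconv.

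**Figure D1:**
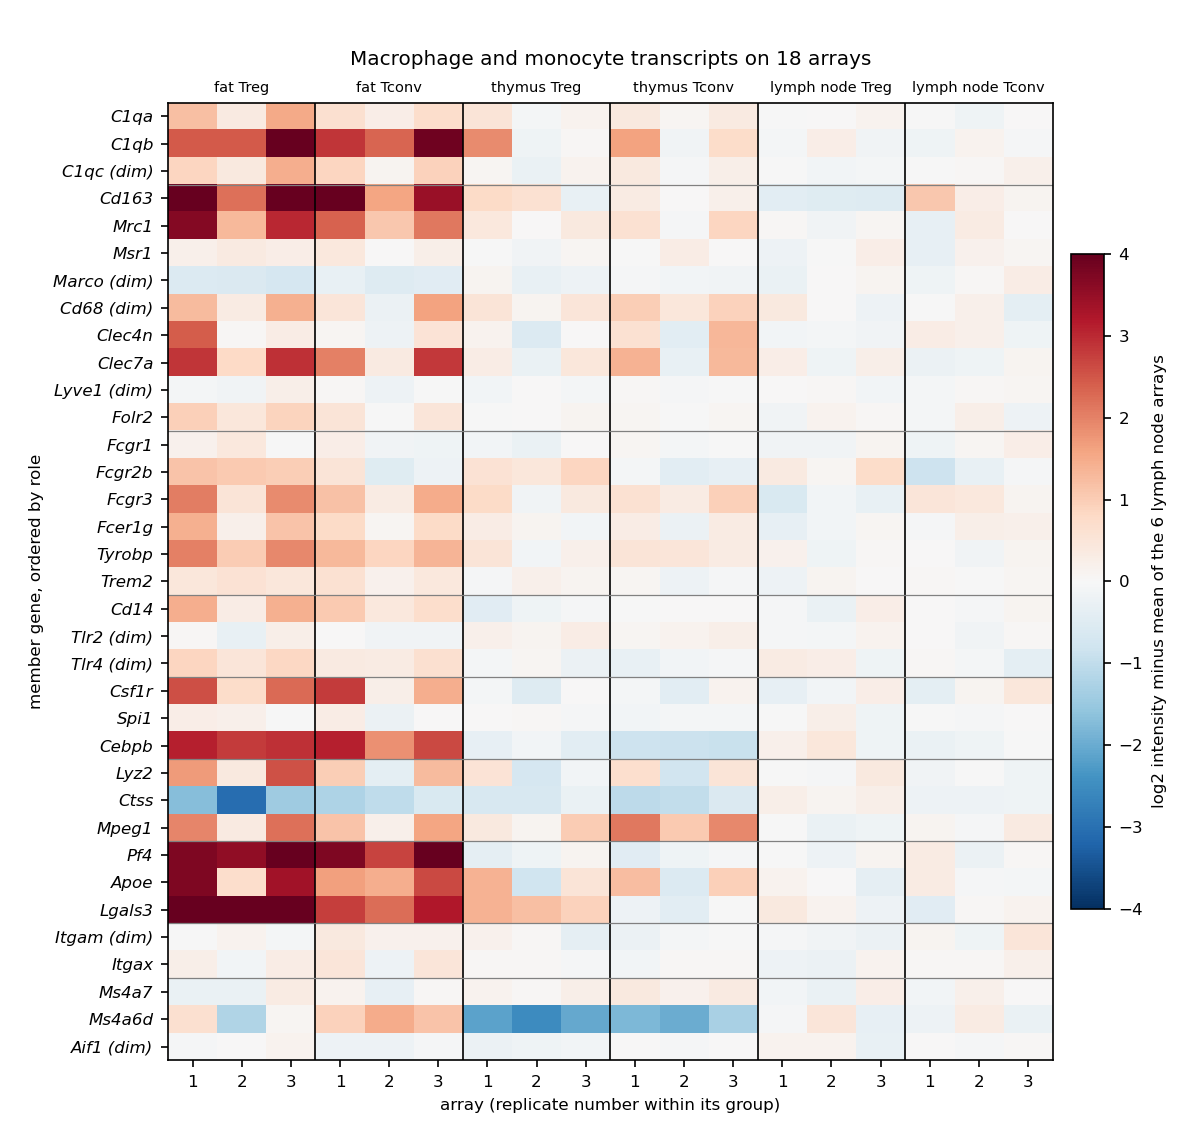
Log2 intensity of each member on each of the 18 arrays, minus the mean of the 6 lymph node arrays, with members in rows grouped by role and arrays in columns grouped by cell population. Values beyond 4 in either direction share the end colour, and members that did not pass the filter are marked dim. Most rows are red in the fat columns, more weakly in array 2 of both fat groups; Ctss is blue in all 6 fat columns, and Ms4a6d is blue in thymus.

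Promoters of 4 members whose levels differed in pattern are printed below, from RefSeq on GRCm38.p6, each from 250 bases before to 50 bases after a gene start. Mrc1 and C1qb were higher in fat of both cell types, Lgals3 was higher in fat of both cell types and in Treg of fat and thymus, and Ctss was lower in fat Treg. Capitals mark GAGGAA or its reverse complement TTCCTC, the core bound by the myeloid transcription factor PU.1, which is encoded by the member Spi1. The stretches are Mrc1 at chr2:14229164-14229463 on the + strand, C1qb at chr4:136886151-136886450 on the - strand, Ctss at chr3:95526536-95526835 on the + strand and Lgals3 at chr14:47373610-47373909 on the + strand.
Mrc1: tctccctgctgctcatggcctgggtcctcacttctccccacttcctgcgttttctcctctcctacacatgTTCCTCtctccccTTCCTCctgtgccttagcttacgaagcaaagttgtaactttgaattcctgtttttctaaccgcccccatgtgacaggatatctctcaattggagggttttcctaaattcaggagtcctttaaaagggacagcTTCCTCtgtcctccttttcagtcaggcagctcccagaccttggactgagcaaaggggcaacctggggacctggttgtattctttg
C1qb: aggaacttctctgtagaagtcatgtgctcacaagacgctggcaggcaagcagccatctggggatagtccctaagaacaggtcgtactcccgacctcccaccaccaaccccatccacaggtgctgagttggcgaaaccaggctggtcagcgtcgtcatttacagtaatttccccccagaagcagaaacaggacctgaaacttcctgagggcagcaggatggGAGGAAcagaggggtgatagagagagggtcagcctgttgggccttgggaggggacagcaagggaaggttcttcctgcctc
Ctss: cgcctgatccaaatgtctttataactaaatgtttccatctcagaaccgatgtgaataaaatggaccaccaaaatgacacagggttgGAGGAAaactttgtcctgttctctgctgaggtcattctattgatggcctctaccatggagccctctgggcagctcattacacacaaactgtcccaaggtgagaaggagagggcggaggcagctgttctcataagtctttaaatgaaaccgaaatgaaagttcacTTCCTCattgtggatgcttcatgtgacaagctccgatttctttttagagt
Lgals3: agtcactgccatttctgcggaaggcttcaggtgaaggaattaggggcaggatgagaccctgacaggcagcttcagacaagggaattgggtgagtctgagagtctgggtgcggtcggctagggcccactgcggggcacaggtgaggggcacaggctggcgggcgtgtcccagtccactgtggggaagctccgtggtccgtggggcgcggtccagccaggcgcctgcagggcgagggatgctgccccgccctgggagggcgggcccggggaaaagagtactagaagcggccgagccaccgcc
The core occurred 3 times in the Mrc1 stretch, once in C1qb, 2 times in Ctss and 0 times in Lgals3. Promoters were read for 25 of the 35 members, and Csf1r and Cd14 were among the members left out. Of the 25, 15 held the core on either strand (60.0%), against 31.3% of 27025 genes. The selection that left members out was not applied to all genes. The shares for this core and for the next motif are therefore not strictly comparable. The motif TTGCNNAA, which is read by C/EBP factors such as the product of the member Cebpb, was found in 4 of the 25 (16.0%), against 12.2% of genes. A match of letters is a description and no bound site.

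Complement C1q tags debris for uptake and is made largely by macrophages. Of its 3 chains 2 were tested, and both were higher in fat Treg and 1 in fat Tconv. Among all genes tested, 16.1% were higher in fat Treg and 11.0% in fat Tconv. Both chains had passed the dim filter through fat alone, so the filter favoured this count. C1qb, a chain of C1q with a PU.1 core in the stretch printed above, had an intensity of 95.1, 94.7 and 544 in fat Treg and 126.5, 86.5 and 259 in fat Tconv, against 16.45, 20.9 and 15.9 in lymph node Treg and 15.5, 18.9 and 16.9 in lymph node Tconv. Every fat array lay above every lymph node array, with array 3 the highest in both fat groups. The log2 fold change was 3.27 ± 0.63 in Treg (adjusted p = 0.000586) and 3.05 ± 0.63 in Tconv (adjusted p = 0.0018). The probe set used is of a type that can read related transcripts, which was not checked, and the other C1qb probe sets gave 1.36 and 3.13 in Treg and 0.69 and 3.41 in Tconv. C1qa, another chain, was higher in fat Treg (0.97 ± 0.23, adjusted p = 0.0032) and gave 0.58 ± 0.23 in Tconv (adjusted p = 0.0786). C1qc, the remaining chain, was below the filter and measured 42.3 to 87.4 in fat Treg against 29.7 to 31.3 in lymph node Treg.

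Scavenger and lectin receptors recognise modified proteins, sugars and dying cells, and 4 of the 6 tested were higher in fat Treg and 3 in fat Tconv. The shares over all genes tested were 16.1% and 11.0%. Of these 6, Cd163, Mrc1 and Clec4n had passed the dim filter through fat alone, which favours such a count. Cd163, the haemoglobin scavenger receptor of resident macrophages, measured 335, 72.6 and 290.1 in fat Treg and 301, 47.1 and 174 in fat Tconv, against 11.7, 11.2 and 10.9 in lymph node Treg and 32.9, 18.9 and 16.98 in lymph node Tconv. Array 2 of each fat group was far below its companions and still above all lymph node arrays. The log2 fold change was 4.09 ± 0.57 in Treg (adjusted p = 2.71e-05) and 2.62 ± 0.57 in Tconv (adjusted p = 0.00273).

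Mrc1, the mannose receptor CD206, measured 269, 51.9 and 174 in fat Treg and 109, 44.8 and 91.8 in fat Tconv, against 19.5 to 22.5 in lymph node Treg and 17.1 to 26.5 in lymph node Tconv. Again array 2 was the lowest fat array of each group, with no overlap with lymph node (2.66 ± 0.44, adjusted p = 0.000163 in Treg and 1.84 ± 0.44, adjusted p = 0.00557 in Tconv). Clec7a, the beta-glucan receptor Dectin-1, measured 457, 110 and 479 in fat Treg and 259, 81.25 and 455 in fat Tconv, against 56.1 to 77.2 in lymph node Treg and 53.6 to 68.1 in lymph node Tconv. It passed in Treg (2.07 ± 0.58, adjusted p = 0.0104) and in Tconv (1.85 ± 0.58, adjusted p = 0.0291), and lost the call in Treg without fat array 1 or 3 and in Tconv without fat array 1 or 3 or any 1 lymph node array. Folr2, a folate receptor of resident macrophages, was higher in fat Treg (0.75 ± 0.17, adjusted p = 0.00207) and gave 0.34 ± 0.17 in Tconv (adjusted p = 0.159).

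The other receptors of this kind did not pass. Clec4n, which encodes Dectin-2, measured 239.5 on fat Treg array 1 and 38.5 to 64.1 on the other 5 fat arrays, against 39.3 to 53.9 in lymph node, and gave 1.03 ± 0.48 in Treg (adjusted p = 0.109). Msr1, the class A scavenger receptor, gave 0.26 ± 0.16 in Treg and 0.24 ± 0.16 in Tconv (adjusted p = 0.229 and 0.325). Cd68, a lysosomal glycoprotein of phagocytes, was below the filter and ranged from 25.8 to 93.0 over the fat arrays against 23.1 to 39.4 in lymph node. Marco, a scavenger receptor of marginal zone macrophages, was below the filter too and measured 27.3 to 35.3 in fat against 36.0 to 52.9 in lymph node, so that it lay lower on every fat array. Lyve1, a hyaluronan receptor of lymphatic vessels and of some resident macrophages, read 16.9 to 22.6 in fat and 17.8 to 20.4 in lymph node on the probe set chosen by the rule. A dimmer Lyve1 probe set differed by 1.70 in Treg and 1.38 in Tconv.

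Fc receptors bind antibody; the activating ones signal through the chain Fcer1g, Fcgr2b through an inhibitory motif of its own, and Tyrobp serves receptors such as Trem2. Of the 6 members of this kind, 5 were higher in fat Treg than in lymph node Treg and 1 was higher in fat Tconv than in lymph node Tconv. Of all genes tested, 16.1% were higher in fat Treg and 11.0% in fat Tconv. Fcer1g and Tyrobp had passed the dim filter through fat alone. Fcgr3, the low-affinity activating receptor CD16, measured 238, 81.7 and 213 in fat Treg and 128, 72.0 and 162 in fat Tconv, against 37.7, 52.9 and 47.01 in lymph node Treg and 80.0, 76.4 and 62.25 in lymph node Tconv. The Treg groups did not overlap (1.82 ± 0.35, adjusted p = 0.000664), while fat Tconv array 2 lay within the range of lymph node Tconv (0.66 ± 0.35, adjusted p = 0.205). Tyrobp, the adaptor DAP12, measured 135, 67.5 and 125 in fat Treg and 81.7, 60.25 and 85.4 in fat Tconv, against 29.1 to 37.3 and 30.1 to 35.4 in the lymph node groups. It was higher in fat in both Treg (1.65 ± 0.23, adjusted p = 2.26e-05) and Tconv (1.18 ± 0.23, adjusted p = 0.000977).

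Fcer1g, the common gamma chain of Fc receptors, was higher in fat Treg (1.04 ± 0.26, adjusted p = 0.00516), and so was Trem2, a lipid receptor that signals through Tyrobp (0.52 ± 0.14, adjusted p = 0.00675), although the mean over the probe sets of Trem2 lost that call. Fcgr2b, the inhibitory Fc receptor, passed in Treg (0.67 ± 0.24, adjusted p = 0.0382) and lost the call without any 1 of the fat Treg arrays, without lymph node Treg array 1 or 2, and without both fat arrays of number 2. Fcgr1, the high-affinity receptor CD64, which is a defining marker of tissue macrophages, measured 123.5 to 185 in fat and 123 to 166.5 in lymph node and did not pass (0.24 ± 0.16 in Treg, adjusted p = 0.26 and -0.07 ± 0.16 in Tconv, adjusted p = 0.812).

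The sensors of microbial products gave 1 testable member. Cd14, a co-receptor for lipopolysaccharide, measured 165, 73.6 and 163 in fat Treg and 125, 80.5 and 98.7 in fat Tconv, against 49.9 to 73.15 in lymph node Treg and 58.04 to 64.5 in lymph node Tconv. The groups did not overlap, and Cd14 was higher in fat Treg (1.07 ± 0.25, adjusted p = 0.00288) and, just within the threshold, in fat Tconv (0.71 ± 0.25, adjusted p = 0.0475). The Tconv call was lost without fat Tconv array 1 or 3, without any 1 lymph node Tconv array, with arrays centred by their medians and with no filter on dim genes. The Toll-like receptor genes Tlr2 and Tlr4 were below the filter, with Tlr4 at 26.0 to 37.6 in fat against 15.7 to 25.8 in lymph node and Tlr2 at 43.3 to 62.0 against 48.6 to 58.7.

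Csf1r, the receptor for the growth factor on which macrophages depend, measured 974, 273 and 789 in fat Treg and 1133, 193 and 451 in fat Tconv, against 130.1, 149.9 and 198 in lymph node Treg and 124, 176 and 225.5 in lymph node Tconv. Array 2 was lowest in both fat groups, and on it fat Tconv lay within the lymph node range. Csf1r was higher in Treg (1.92 ± 0.50, adjusted p = 0.00602) and in Tconv (1.44 ± 0.50, adjusted p = 0.0449), with other probe sets at 1.48 and 0.04 in Treg and 0.84 and -0.08 in Tconv. The Tconv call was lost without fat Tconv array 1 or 3, without any 1 lymph node Tconv array, and in 3 other settings (the mean of the probe sets, no filter on dim genes, and a fit of these groups alone).

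Cebpb, a transcription factor of myeloid cells and of fat cells, measured 790.4, 637 and 705 in fat Treg and 793, 324 and 577 in fat Tconv, against 107, 125 and 81.2 in lymph node Treg and 76.1, 81.1 and 91.8 in lymph node Tconv. All fat arrays lay above all lymph node arrays (2.79 ± 0.24, adjusted p = 9.4e-08 in Treg and 2.68 ± 0.24, adjusted p = 3.78e-07 in Tconv), and its other, dimmer probe set differed by 0.17 and 0.19. Spi1, which encodes PU.1, measured 99.0, 94.2 and 81.2 in fat Treg and 101, 69.8 and 82.7 in fat Tconv, against 80.8, 96.9 and 73.4 in lymph node Treg and 81.05, 80.5 and 83.1 in lymph node Tconv. The groups overlapped, and the difference was 0.13 ± 0.14 in Treg (adjusted p = 0.492) and 0.04 ± 0.14 in Tconv (adjusted p = 0.888).

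Of the 3 lysosomal and pore-forming members, Lyz2 and Mpeg1 were higher in fat Treg and Ctss was lower, and 0 passed in fat Tconv. Over all genes tested, 16.1% were higher and 19.3% lower in fat Treg, and 11.0% and 12.3% in fat Tconv. Lyz2, the lysozyme of phagocytes, measured 371, 149 and 656 in fat Treg and 221, 86.4 and 274 in fat Tconv, against 113, 109 and 148 in lymph node Treg and 102, 111 and 101 in lymph node Tconv. Fat Treg array 2 lay just above the lymph node Treg arrays and fat Tconv array 2 below all lymph node Tconv arrays. Lyz2 passed in Treg (1.44 ± 0.49, adjusted p = 0.0313; lost without fat Treg array 1 or 3 or lymph node Treg array 1 or 2, and with arrays centred by their medians) and not in Tconv (0.73 ± 0.49, adjusted p = 0.324).

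Mpeg1, a pore-forming protein of macrophages, measured 298, 100.2 and 361 in fat Treg and 172, 89.55 and 233 in fat Tconv, against 77.3, 65.2 and 68.2 in lymph node Treg and 84.45, 75.0 and 100.4 in lymph node Tconv. The Treg groups did not overlap and the difference passed (1.66 ± 0.42, adjusted p = 0.00491); the Tconv groups overlapped on array 2 (0.83 ± 0.42, adjusted p = 0.169).

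Ctss, the cysteine protease cathepsin S of antigen-presenting cells, ran against the rest. It measured 2289, 902 and 2767 in fat Treg and 3170, 3696 and 4918 in fat Tconv, against 8719, 8037 and 8840 in lymph node Treg and 6471, 6414 and 6605 in lymph node Tconv. All 6 fat arrays lay below all 6 lymph node arrays, with fat Treg array 2 the lowest. Ctss was lower in fat Treg (-2.25 ± 0.29, adjusted p = 1.26e-05) and gave -0.75 ± 0.29 in fat Tconv (adjusted p = 0.0743). Without both fat arrays of number 2 the Tconv difference was -0.72 ± 0.20 and passed (adjusted p = 0.016).

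All 3 secreted members were higher in fat Treg and 2 in fat Tconv, where 16.1% and 11.0% of all genes tested were higher. Pf4 and Apoe had passed the dim filter through fat alone. Pf4, a chemokine of platelets that is also made by resident macrophages, measured 305, 268 and 489 in fat Treg and 301.5, 148 and 392 in fat Tconv, against 19.7 to 24.4 in lymph node Treg and 19.25 to 28.6 in lymph node Tconv. No fat array came near the lymph node range (3.95 ± 0.29, adjusted p = 1.42e-08 in Treg and 3.47 ± 0.29, adjusted p = 1.75e-07 in Tconv).

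Lgals3, which encodes galectin-3, measured 721, 936 and 1042 in fat Treg and 281, 193 and 375 in fat Tconv, against 53.5, 44.8 and 35.5 in lymph node Treg and 29.9, 42.0 and 44.9 in lymph node Tconv. The 3 groups formed by fat Treg, fat Tconv and all lymph node arrays did not overlap. The difference from lymph node was 4.34 ± 0.23 in Treg (adjusted p = 4.55e-10) and 2.83 ± 0.23 in Tconv (adjusted p = 1.71e-07). Apoe, a lipid carrier made by macrophages and fat cells, measured 240.1, 29.7 and 187 in fat Treg and 56.9, 49.9 and 112.5 in fat Tconv, against 14.2 to 19.9 in lymph node Treg and 17.3 to 23.05 in lymph node Tconv. No fat array overlapped with lymph node, although fat Treg array 2 was close to it. Apoe passed in Treg (2.66 ± 0.66, adjusted p = 0.00433) and not in Tconv (1.84 ± 0.66, adjusted p = 0.0526).

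The integrins and the last 3 members were mostly flat. Itgam measured 18.8 to 26.2 in fat and 16.99 to 27.6 in lymph node. Itgax, the integrin CD11c of dendritic cells and some macrophages, measured 59.5 to 96.1 in fat and 58.4 to 78.9 in lymph node (0.23 ± 0.17 in Treg, adjusted p = 0.313 and 0.15 ± 0.17 in Tconv, adjusted p = 0.602). Aif1, the macrophage protein Iba1, was dim on all arrays (11.5 to 15.7 over fat and lymph node), and Ms4a7, a membrane protein gene of macrophages, measured 72.05 to 112 in fat against 74.7 to 109 in lymph node (-0.03 ± 0.18 in Treg, adjusted p = 0.921).

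Ms4a6d, a related membrane protein gene, measured 232, 64.7 and 156 in fat Treg and 283, 412 and 330.2 in fat Tconv, against 145, 207.5 and 118 in lymph node Treg and 129.5, 187 and 125 in lymph node Tconv. Fat Treg array 2 was the lowest of these 12 arrays and fat Tconv array 2 the highest. It was higher in fat Tconv (1.22 ± 0.35, adjusted p = 0.0161; lost without fat Tconv array 2 or lymph node Tconv array 1 or 3) and did not pass in Treg (-0.20 ± 0.35, adjusted p = 0.682). Its probe set too is of a type that can read related transcripts, as are those of Clec4n, Trem2, Marco and Aif1. A dimmer probe set gave -0.09 in Treg and 1.25 in Tconv.

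**Figure D2:**
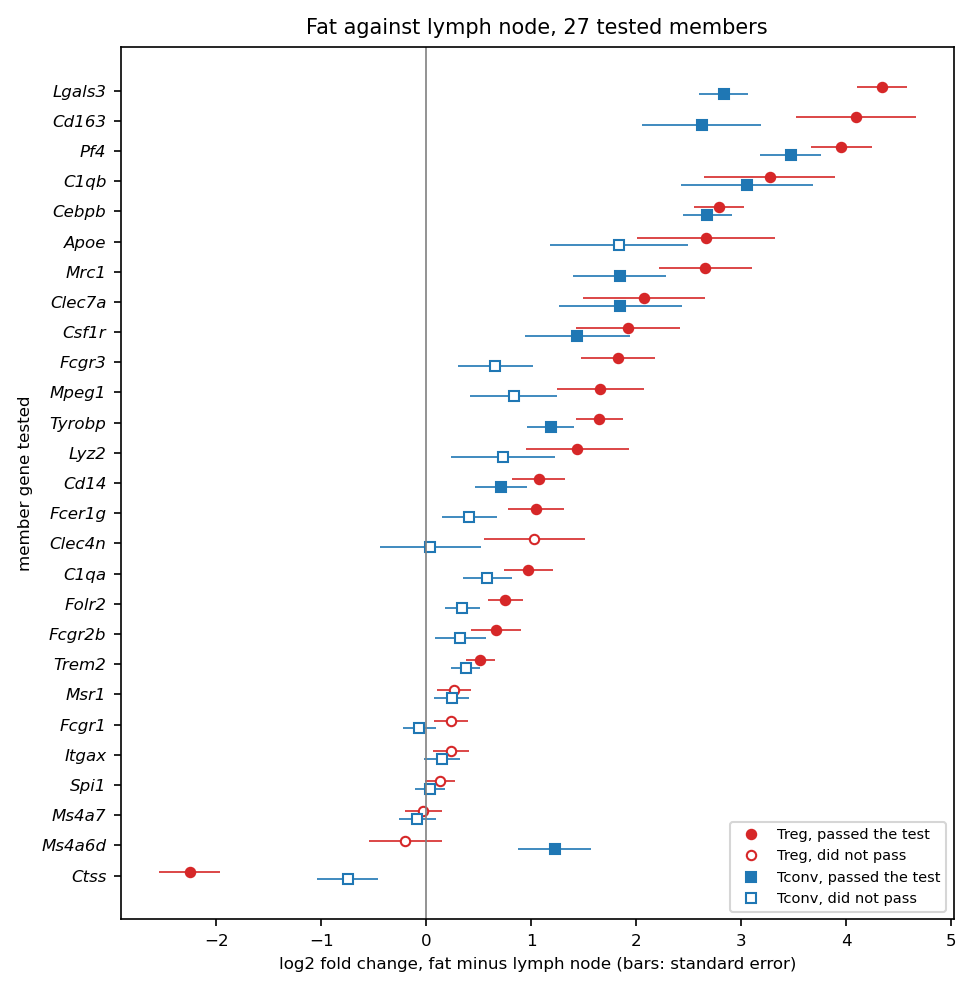
Log2 fold change of fat over lymph node for the 27 members tested, ordered by the Treg value, with circles for Treg, squares for Tconv and bars for the standard error. Filled symbols passed the test (20 in Treg and 11 in Tconv). Treg lies right of Tconv for most members, and Ctss at the bottom is the member that passed left of 0.

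The members were then followed array by array in fat. The mean log2 intensity of the 35 members was 7.29, 6.49 and 7.34 on fat Treg arrays 1, 2 and 3 and 6.95, 6.28 and 7.01 on the fat Tconv arrays, against 5.86 to 5.89 on the lymph node Treg arrays and 5.85 to 5.93 on the lymph node Tconv arrays. Every fat array lay above every lymph node array, and array 2 was the lowest of each fat group. The summed intensity without Ctss was 8516, 5404 and 8988 in fat Treg and 6536, 3367 and 5878 in fat Tconv, against 2604 to 3005 in lymph node Treg and 2211 to 2666 in lymph node Tconv. With Ctss the sums were 6306 to 11754 in fat Treg and 7062 to 10797 in fat Tconv, against 10641 to 11844 in lymph node Treg and 8681 to 9272 in lymph node Tconv, so that the order of the tissues is lost in a sum that includes it.

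Array 2 was the lowest of the 3 for 26 of 35 members in fat Treg and for 30 of 35 in fat Tconv, where 27.7% and 37.2% of all genes measured had their lowest value there. For 23 members (65.7%) it was lowest in both groups, against 12.7% of all genes. Array 2 lay below the mean of arrays 1 and 3 by a median of -0.75 in Treg and -0.51 in Tconv on the log2 scale, against 0.03 and -0.03 over all genes. It was more than 2-fold lower for 16 members in Treg and 10 in Tconv, against 0.934% and 0.918% of all genes. Cd163 differed by -2.10 and -2.28, Clec7a by -2.09 and -2.08 and Csf1r by -1.68 and -1.89 in Treg and in Tconv. Lgals3 (0.11) and Fcgr2b (-0.002) did not follow them in Treg. Nor did Fcgr1 (0.34), Itgam (0.205), Trem2 (0.14), Msr1 (0.12), Spi1 (0.07), Marco (0.03) and Aif1 (-0.04). Ms4a6d (0.43) did not in Tconv, where Ctss (-0.096), Itgam (-0.097), Aif1 (-0.09) and Tlr2 (-0.08) differed little. Itgam and Fcgr1 had their lowest value on array 2 in neither group.

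The members were then set against lymph node on each fat array. In Treg, 28, 25 and 28 members lay above all 3 lymph node Treg arrays on fat arrays 1, 2 and 3, where 30.1% to 35.4% of all genes did so, and 2, 6 and 2 lay below all 3. The median over the 35 members was 1.14, 0.35 and 1.25 above the lymph node mean. More than 2-fold above that mean were 18, 7 and 18 members, against 4.4% to 5.97% of all genes, the 7 of array 2 being C1qb, Cd163, Mrc1, Tyrobp, Cebpb, Pf4 and Lgals3. In Tconv, 27, 14 and 25 members lay above all 3 lymph node Tconv arrays, where 25.4% to 35.6% of all genes did, and 3, 10 and 4 lay below all 3. The median was 0.68, 0.03 and 0.76 above the lymph node mean, so that on fat Tconv array 2 the members as a whole lay close to lymph node. There 8 stood more than 2-fold above the mean, against 13 and 15 on arrays 1 and 3 and 3.47% to 5.1% of all genes. Those 8 were C1qb, Cd163, Mrc1, Cebpb, Pf4, Apoe, Lgals3 and Ms4a6d.

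**Figure D3:**
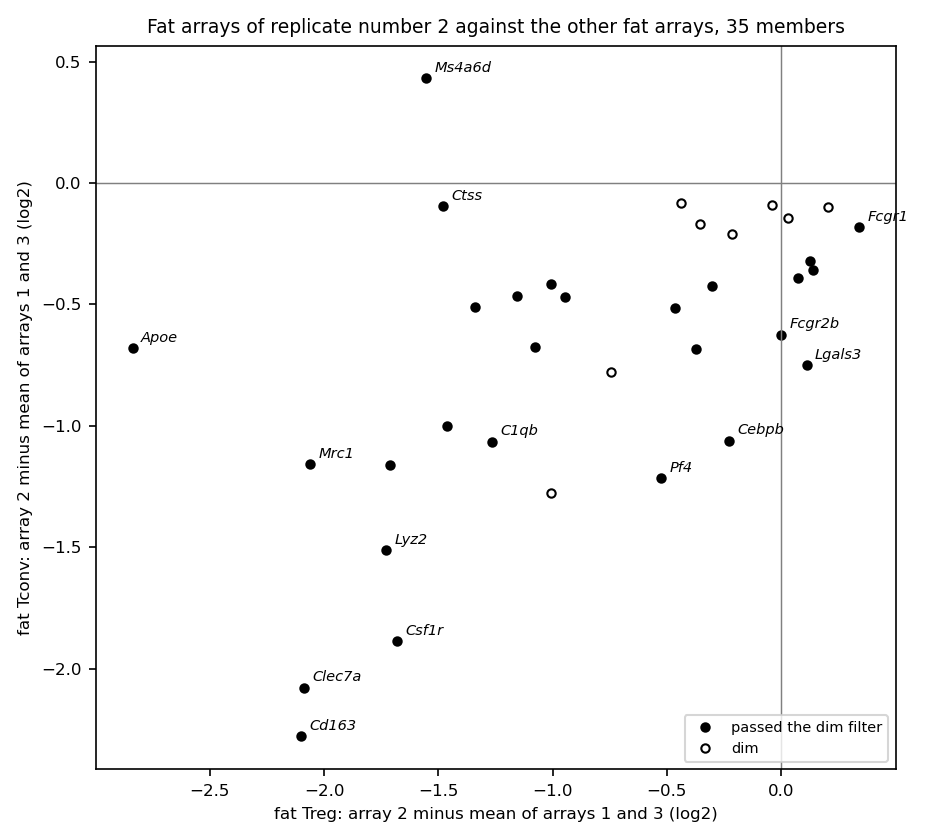
Each point is 1 of the 35 members, at the log2 difference between array 2 and the mean of arrays 1 and 3 in fat Treg (x axis) and in fat Tconv (y axis). Filled points passed the filter. Most points lie low and to the left, with Cd163 near -2.10 and -2.28, while Ms4a6d at -1.55 and 0.43 is alone above the horizontal line.

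The 2 arrays of number 2 decided several calls. Without both, a choice made after the data were seen, the count in fat Tconv against lymph node Tconv was 19 higher and 1 lower in place of 11 and 0, with C1qa, Fcgr3, Fcer1g, Folr2, Trem2, Lyz2, Mpeg1 and Apoe added to the higher ones. Of all genes 22.5% then passed. In fat Treg against lymph node Treg the counts were again 19 and 1, with Clec4n (1.47, adjusted p = 0.0366) in place of Fcgr2b, where 30.5% of all genes passed.

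Treg and Tconv of the same fat were compared next. Of the 27 members, Lgals3 and Fcgr2b were higher in fat Treg and Ctss and Ms4a6d were lower, where 12.8% of all genes passed, 6.87% higher and 5.89% lower. The 4 of 27 called lay near that share. The median over the 35 members was 0.36, against 0.005 over all genes, and 29 were above 0. Fat Treg and fat Tconv arrays that share a number deviated together from their group means, and with the number as a block 8 members were higher and 2 lower, where 23.1% of all genes passed. The 6 members added were C1qa (0.49, adjusted p = 0.02), Folr2 (0.44, adjusted p = 0.00885), Lyz2 (0.93, adjusted p = 0.00094), Mpeg1 (0.53, adjusted p = 0.0424), Mrc1 (0.81, adjusted p = 0.00957) and Tyrobp (0.48, adjusted p = 0.0262).

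Lgals3 was higher by 1.70 ± 0.23 in fat Treg (adjusted p = 5.41e-05), with values given above that do not overlap. Fcgr2b measured 1260, 1188 and 1124 in fat Treg and 814, 411 and 493 in fat Tconv, against 742, 599.8 and 944 in lymph node Treg and 323, 468 and 555 in lymph node Tconv. All 3 fat Treg arrays lay above the other 9, and the difference in fat was 1.12 ± 0.24 (adjusted p = 0.00354). Dimmer probe sets of Fcgr2b differed by -0.009 to 0.34 between the fat groups. Ctss was lower in fat Treg (-1.11 ± 0.29, adjusted p = 0.0157), and so was Ms4a6d (-1.35 ± 0.35, adjusted p = 0.0137). Ctss lost this call without fat Treg array 2 or fat Tconv array 3, and Ms4a6d without array 2 of either fat group; both lost it in a fit of these groups alone. Without both fat arrays of number 2, Fcgr2b (adjusted p = 0.0631), Ctss (0.0871) and Ms4a6d (0.228) did not pass, whereas C1qa, Lgals3 and Mrc1 did; on fat Tconv array 2, Foxp3 was 116, against 53.7 and 57.3 on the other fat Tconv arrays, and what part this has in those differences was not tested.

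In lymph node 0 of the 27 members differed between Treg and Tconv by limma's test, where 4.58% of all genes passed, 3.25% higher and 1.33% lower; at an unadjusted p under 0.05, 1 did, Fcgr2b (higher by 0.77 ± 0.24, adjusted p = 0.0879). With the replicate number as a block 3 passed (8.82% of all genes did), Fcgr2b higher (adjusted p = 0.0183), and Cd163 (-0.96, adjusted p = 0.0114) and Fcgr3 (-0.67, adjusted p = 0.0323) lower in Treg. The difference between Treg and Tconv was itself larger in fat than in lymph node for Lgals3 (1.504 ± 0.33, adjusted p = 0.00992) and lower for Ctss (-1.504 ± 0.41, adjusted p = 0.0411), where 5.34% of all genes passed, 2.46% higher and 2.88% lower. These 2 of the 27 members lay near that share. With the replicate block Cd163 (1.47, adjusted p = 0.00633), Fcgr3 (1.17, adjusted p = 0.00875) and Mpeg1 (0.83, adjusted p = 0.0453) passed as well, where 11.8% of all genes did. Without both fat arrays of number 2 neither Lgals3 (1.22, adjusted p = 0.0622) nor Ctss (-1.04, adjusted p = 0.0534) passed. Ctss lost this call under 13 of 22 other settings.

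**Figure D4:**
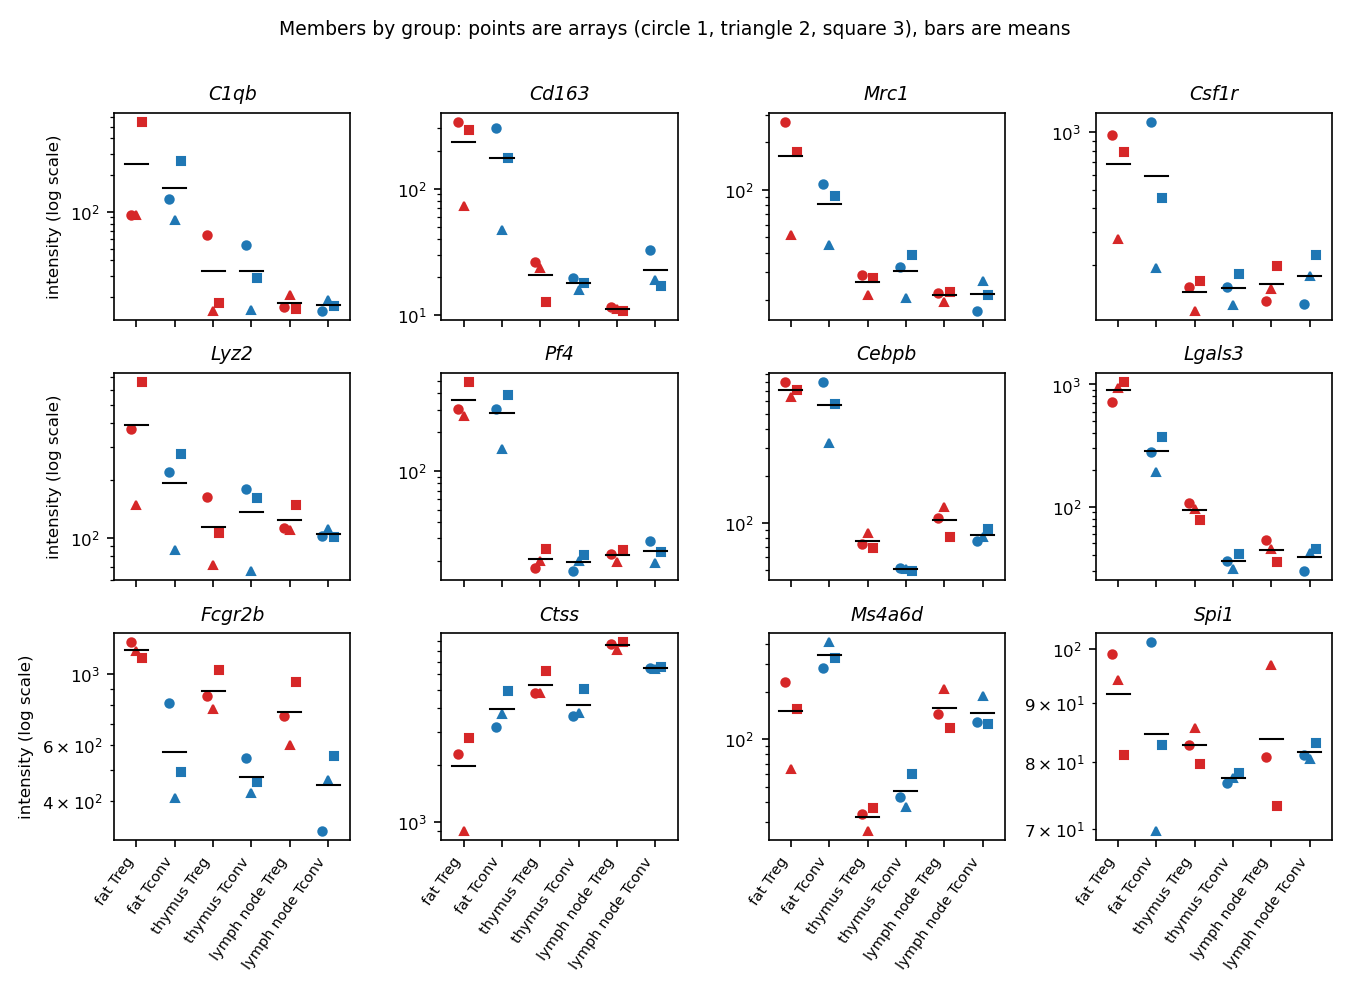
Intensity on a log scale for 12 members in the 6 groups, fat first, with red for Treg, blue for Tconv, 1 point per array (circle 1, triangle 2, square 3) and a bar at the mean of 3 arrays. C1qb, Cd163, Mrc1, Csf1r, Lyz2, Pf4 and Cebpb have their triangles at or near the bottom of both fat groups. On the probe sets used, Lgals3 and Fcgr2b part Treg from Tconv in fat and thymus. Ctss is lowest in fat Treg, and Spi1 stays between 69.8 and 101.

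Fewer members were called in thymus against lymph node than in fat against lymph node. Thymus Treg differed from lymph node Treg in 1 member higher, Lgals3 (1.08 ± 0.23, adjusted p = 0.00493), and 1 lower, Ms4a6d (-2.27 ± 0.35, adjusted p = 0.000271), where 12.5% of all genes passed, 6.51% higher and 6.03% lower. Thymus Tconv differed from lymph node Tconv in Mpeg1, which was higher (1.54 ± 0.42, adjusted p = 0.0247), and Ms4a6d, which was lower (-1.65 ± 0.35, adjusted p = 0.0044), where 9.36% passed, 4.66% higher and 4.70% lower. The member median was 0.06 in Treg, against 0.003 over all genes, and 0.01 in Tconv, against -0.009. With the array number group as a block, Lgals3 in Treg and Ms4a6d in Tconv did not pass. Mpeg1 measured 101, 83.7 and 156 in thymus Treg and 336, 160.5 and 292 in thymus Tconv, with all thymus Tconv arrays above lymph node, and its call was lost without any 1 lymph node Tconv array and without thymus Tconv array 1 or 3. Ms4a6d measured 33.55, 26.1 and 36.3 in thymus Treg and 43.1, 37.4 and 60.1 in thymus Tconv, all below every lymph node and fat array.

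Thymus Treg and thymus Tconv differed in 2 of 27 members, Lgals3 (1.39 ± 0.23, adjusted p = 0.00117) and Fcgr2b (0.90 ± 0.24, adjusted p = 0.0333), both higher in Treg, where 5.49% of all genes passed, 3.38% higher and 2.11% lower. This count lay near that share. Lgals3 measured 108, 94.9 and 78.4 in thymus Treg and 35.9, 30.8 and 40.6 in thymus Tconv, and Fcgr2b 855, 781 and 1031 against 548, 424 and 459.9. Neither gene's groups overlapped, but Fcgr2b lost its call without thymus Treg array 1 or 3, without thymus Tconv array 2 or 3, and with the mean of its probe sets. Dimmer probe sets of Fcgr2b had group levels of 16.4, 8.5, 28.9 and 90.6 in thymus Treg. In thymus Tconv the same probe sets had 17.6, 10.1, 33.1 and 85, so that most were not higher in Treg. With the replicate block Mpeg1 was lower in thymus Treg (-1.19, adjusted p = 0.000588; 13.4% of all genes passed). The Treg effect in thymus differed from that in lymph node in 0 members by limma's test, where 0.351% of all genes passed, and in 1, Lgals3, at an unadjusted p under 0.05.

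The members were also low on the thymus arrays of number 2. The file numbers of these arrays lie in another set than those of the fat arrays of number 2. The shared replicate number does not by itself link arrays of fat and thymus. The mean log2 intensity of the 35 members was 6.07, 5.75 and 5.95 on the thymus Treg arrays and 6.09, 5.73 and 6.12 on the thymus Tconv arrays, and 16 members had their lowest value on array 2 of both thymus groups (45.7%, against 16.7% of all genes). In lymph node it was 6 members (17.1%, against 12.7%). On thymus Treg arrays 1, 2 and 3, 18, 6 and 14 of the 35 members lay above all 3 lymph node Treg arrays. The thymus Tconv arrays had 16, 6 and 15 above all 3 lymph node Tconv arrays, where 23.3% to 30.9% of all genes lay above on the 6 thymus arrays. Below all 3 lay 6, 12 and 6 members in Treg and 7, 14 and 6 in Tconv. More than 2-fold above the lymph node mean were 5, 2 and 1 members in Treg and 5, 0 and 3 in Tconv, against 1.34% to 4.11% of all genes. C1qb measured 64.15, 15.5 and 17.96 in thymus Treg and 53.3, 15.7 and 28.9 in thymus Tconv, so that thymus Treg array 1 and thymus Tconv arrays 1 and 3 lay above the lymph node arrays and the other thymus arrays did not. Apoe measured 48.1, 10.4 and 26.0 in thymus Treg and 42.8, 12.5 and 35.0 in thymus Tconv, with array 2 the lowest in both groups. None of these differences of C1qb and Apoe from lymph node passed (adjusted p from 0.571 to 0.801).

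Members that behaved unlike the rest were named by the size of their departure from the median member over the 6 fat arrays, each taken from its own fat mean. Ms4a6d departed most, by 0.82 on the log2 scale, followed by Apoe (0.71), Lgals3 (0.70), Ctss (0.70) and C1qb (0.70). Apoe was further below its own fat arrays 1 and 3 on fat Treg array 2 (-2.84) than any other member, and C1qb was high on array 3 of both groups. Lgals3 lay above its fat mean on all 3 fat Treg arrays, and Ctss and Ms4a6d above theirs on all 3 fat Tconv arrays. Called against the sign of the member median were Ctss in both comparisons of fat Treg and in the difference between tissues, Ms4a6d in fat Treg against fat Tconv and in both thymus comparisons with lymph node, and Lgals3 and Fcgr2b in thymus Treg against thymus Tconv. Spi1, Fcgr1, Itgax, Ms4a7, Msr1 and Clec4n passed the filter and were called in neither comparison of fat with lymph node.

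Other genes known from macrophages and monocytes, none of them members, were read beside them. Of 52 listed, 47 were measured and 32 tested, and in fat Treg against lymph node Treg 15 were higher and 2 lower, with a median of 0.28 over the 47. Of all genes tested 16.1% were higher and 19.3% lower, and the median over all genes measured was 0.005. The largest were Ccl6, a chemokine (4.72 ± 0.58), Cd36, a fatty acid and lipoprotein receptor (4.57 ± 0.32), Cd93, a membrane glycoprotein of myeloid and endothelial cells (4.08 ± 0.46), Slc15a3, a lysosomal peptide transporter (3.15 ± 0.27), and Tgfbi, a matrix protein (3.10 ± 0.47). Adgre1, which encodes the macrophage antigen F4/80, was higher as well (2.04 ± 0.38), at 555, 169.8 and 495.5 in fat Treg against 76.0 to 98.3 in lymph node Treg. The cholesterol exporter gene Abca1 (-2.15 ± 0.33) and the endosomal receptor gene Tlr7 (-1.61 ± 0.31) were lower.

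In fat Tconv against lymph node Tconv 11 of these 32 were higher and 1, Abca1 (-2.35 ± 0.33), was lower, with a median of 0.31. Of all genes tested 11.0% were higher and 12.3% lower, and the median over all genes measured was -0.034. Cd36 (3.90), Ccl6 (3.79), Cd93 (3.70), Tgfbi (2.57) and the chemokine gene Ccl9 (1.90) led. Between the fat groups 4 were higher in Treg, Slc15a3 (3.73 ± 0.27), the protease inhibitor Cst3 (1.10 ± 0.24), the oxidase subunit Ncf4 (0.90 ± 0.19) and the metal transporter Slc11a1 (0.67 ± 0.15), and 0 were lower. Of all genes tested 12.8% passed between the fat groups, 6.87% higher and 5.89% lower. The 4 of 32 called in either direction lay near that share. Slc15a3 measured 410.3, 290.2 and 446 in fat Treg and 21.4, 27.3 and 38.8 in fat Tconv, so that, like Lgals3, it separated the fat groups on every array.

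Markers of stromal cells and of fat cells were higher in fat as well. Beside the counts that follow, 16.1% of all genes tested were higher and 19.3% lower in fat Treg than in lymph node Treg. Of 11 stromal, endothelial and mesothelial genes, 8 were tested, and 7 were higher and 1, Pecam1, lower in fat Treg than in lymph node Treg; their summed intensity was 2660 to 7299 in fat Treg and 2570 to 5528 in fat Tconv, against 482 to 572 in lymph node Treg and 500 to 566 in lymph node Tconv. Of 6 adipocyte genes measured, 3 were tested and 2 were higher, Fabp4 (7.94 ± 0.20) and Lpl (4.84 ± 0.56), both of which macrophages also express; the sum was 2425 to 5028 in fat Treg and 1902 to 4730 in fat Tconv, against 216 to 249 and 217 to 242. Lpl measured 2334, 479.6 and 1565 in fat Treg and 1915, 342 and 1437 in fat Tconv, lowest on array 2 like the members. Adipoq, the defining hormone gene of fat cells, measured 165.5, 20.3 and 36.0 in fat Treg and 74.9, 22.9 and 32.5 in fat Tconv, against 13.1 to 19.9 in lymph node.

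Of 11 dendritic and MHC class II genes 7 were tested and 3 were higher in fat Treg, H2-Ab1 (1.75 ± 0.32), H2-Eb1 (1.44 ± 0.19) and Siglech (0.48 ± 0.14). The B cell list had 1 higher and 3 lower of 6 tested in fat Treg. The T cell list, 9 genes that all passed the filter, summed to 15370 to 17635 in fat Treg and 18130 to 20941 in fat Tconv, against 16030 to 18382 in lymph node Treg and 18333 to 19564 in lymph node Tconv. The red cell gene Alas2 was higher in fat Treg (3.83 ± 0.26), 1 of 2 red cell genes tested, and so was Kit (0.96 ± 0.22), 1 of 5 neutrophil and mast cell genes tested. Of 2 natural killer cell genes tested 0 passed in fat Treg, while in fat Tconv Eomes was higher (1.76 ± 0.28) and Prf1 lower (-0.50 ± 0.17). Against lymph node, 16.1% of all genes tested were higher and 19.3% lower in fat Treg. In fat Tconv the shares were 11.0% and 12.3%. Whether the counts of these short lists differ from such shares was not tested. The part of other cells in the member levels was not tested.

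**Figure D5:**
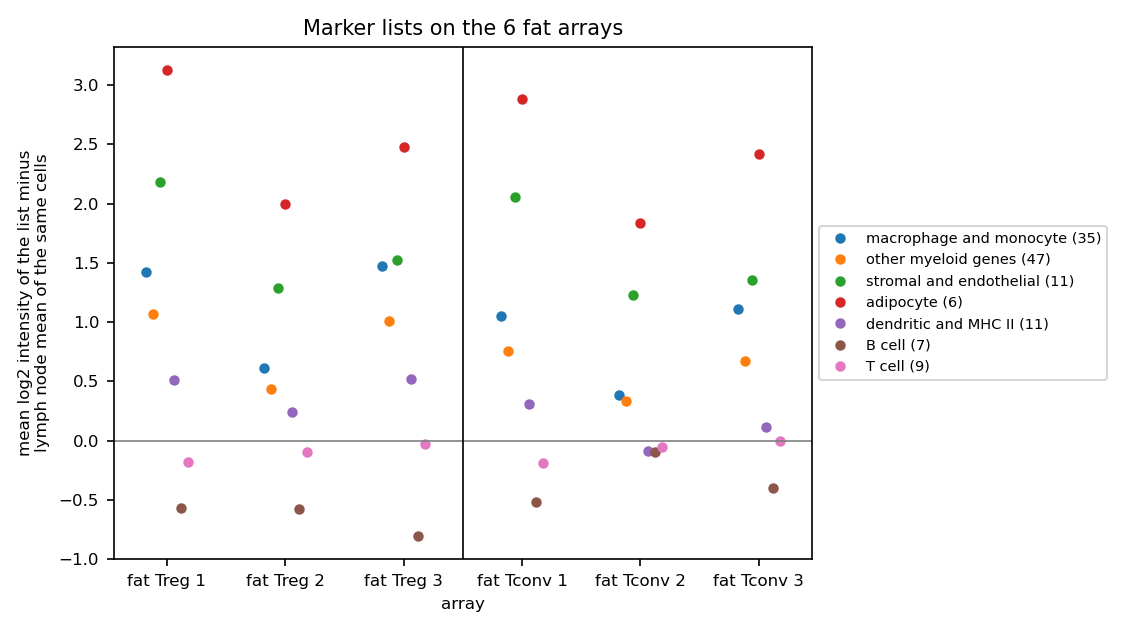
Mean log2 intensity of 7 gene lists on each of the 6 fat arrays, minus the mean over the 3 lymph node arrays of the same cell type, with 1 colour per list and the number of genes in brackets. Array 2 is the lowest of its group for the macrophage and monocyte, other myeloid, stromal, adipocyte and dendritic and MHC II lists, and the T cell list stays close to 0.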

How the data were processed

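Values were the deposited intensities of 18 Affymetrix M430v2 arrays, which the authors made with RMA in GenePattern, per the labels and the submitters' processing notes; the version, and which arrays were normalised together, are not given in the sources used here. RNA was amplified before labelling. Of 45101 probe sets, 64 were controls, 34945 had 1 gene symbol in GEO's platform annotation, 932 several and 9160 none. The brightest probe set stood for a gene; 22 members had 1 probe set and 13 several. On the deposited scale fat exceeded lymph node by a median log2 of 0.40 in Treg and 0.33 in Tconv, so log2 intensities were quantile normalised over all arrays. limma 3.58.1 in R 4.3.3 fitted 1 coefficient per group (12 residual and 4.92 prior degrees of freedom), with Benjamini-Hochberg adjustment over 12258 genes. The script was tested on simulated data.

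The members and the gene lists were chosen with earlier results of these data known. Values on every array were given for the 12 members with the largest fat minus lymph node change and for those called between the fat groups or in the difference of Treg effects. Of other myeloid genes the 5 largest called changes in each direction were named. Arrays that share a replicate number within a tissue correlated in their deviations from the group means (r = 0.355 to 0.661 over 9 Treg and Tconv pairs), so the number pairs them. No 2 arrays were alike (smallest mean absolute log2 difference 0.198). Alternatives covered scaling, filter, probe set choice, blocks, fits of the compared groups alone and each array left out. Promoters came from RefSeq.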

Additional observations from a re-analysis of the deposited data

Results flagged for a closer look

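The difference between Treg and Tconv was not the same in fat and lymph node for 2 of the 27 members tested, by a test of the difference itself in limma. Of all genes tested 5.34% passed, so the count lay near the share of all genes. Lgals3 differed by 1.504 on the log2 scale (SE 0.33, adjusted p = 0.00992), with Treg above Tconv by 1.70 in fat and by 0.20 in lymph node. Ctss differed by -1.504 (SE 0.41, adjusted p = 0.0411), at -1.11 in fat and 0.39 in lymph node. Neither passed without both fat arrays of number 2. Lgals3 kept its call under 21 of 22 other settings and Ctss under 9 of 22.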

How the results depend on the processing

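No called result turned to the other sign in the settings run. On the deposited scale 24 of 29 members tested were called in fat Tconv against lymph node Tconv, where 42.3% of all genes passed in place of 23.3%. In brackets is the share of all genes called in the same setting. The deposited scale gave 1 call between the lymph node groups (4.3%) and 1 in the fat minus lymph node difference of Treg effects (4.87%). With arrays centred by their medians the last 2 counts were 1 (4.32%) and 1 (4.81%). With no dim filter that difference had 1 call (3.53%). The mean of probe sets left 1 call between the thymus groups (6.64%) and 1 in thymus Treg against lymph node Treg (14.2%). Fits of the compared groups alone gave 2 calls between the fat groups (10.9%) and 1 between the lymph node groups (4.72%). They gave 4 in thymus Tconv against lymph node Tconv (10.5%) and 1 in the difference (5.76%). With the array number group as a block there was 1 call between the lymph node groups (6.96%). Against lymph node there was 1 in thymus Treg (8.23%) and 1 in thymus Tconv (8.28%). The pairing by replicate block gave 10 calls between the fat groups (23.1%), 3 between the lymph node groups (8.82%), 3 between the thymus groups (13.4%) and 5 in the difference (11.8%). Without both fat arrays of number 2, chosen after seeing the data, fat Tconv against lymph node Tconv had 20 calls (22.5%) and the difference had 0 (3.67%). The cause was not tested.

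Leaving out 1 array at a time gave 17 to 20 calls in fat Treg against lymph node, where 28% to 34.1% of all genes passed. In fat Tconv it gave 7 to 14 (17.6% to 23.3% of all genes). There were 7 without lymph node Tconv array 1 or 3 and 14 without fat Tconv array 2. Between the fat groups were 3 to 8 calls (9.83% to 13.7%), 8 of them without fat Treg array 2. The lymph node groups had 0 (3.26% to 3.64%) and the thymus groups 1 to 2 (3.77% to 8.79%). Against lymph node, thymus Treg had 2 (7.81% to 15.1%) and thymus Tconv 1 to 2 (6.35% to 8.73%). The difference had 1 to 3 (4.19% to 6.11%) and the thymus difference 0 (0.155% to 0.547%). The 3 arrays per group and the dimness of 8 members limit what could be tested.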
